A study of Rattus norvegicus with 6 samples.

Results

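The 9 genes described here code for nuclear receptors by which liver cells sense drugs, bile acids and lipids. They are Nr1i3 (CAR), Nr1i2 (PXR), Rxra, Nr1h4 (FXR), Nr0b2 (SHP), Nr5a2, Nr1h3 (LXR-alpha), Ppara and Hnf4a. Their members on the array were the non-control probes whose RefSeq accession belongs to 1 of these genes, which gave 20 of the 61657 probes. Nr1i3 had 4 probes, Nr1h4, Nr5a2 and Hnf4a had 3 each, Nr1i2 and Ppara had 2 each, and Rxra, Nr0b2 and Nr1h3 had 1 each. All 20 passed the filter on dim spots, which asked for a signal well above background on 3 or more arrays, so that 9 of 9 genes were tested, among 11434 genes in all.

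Total liver RNA came from 6 male Sprague-Dawley rats, 5 weeks old at purchase, and was hybridised to 1-colour oligonucleotide arrays with 1 array per animal. Of these, 3 animals received corn oil, the vehicle, and 3 received phenolphthalein, an indicator dye and former laxative, at 1000 mg/kg/day. The labels give no genetic change and no other treatment in either group. They disagree on the length of dosing, since the treatment protocol gives 9 weeks and the design text 28 days. Corn oil samples shared slide 1 and scan 1 while phenolphthalein samples shared slide 2 and scan 2, so that treatment and slide cannot be told apart throughout.

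Nuclear receptors are transcription factors that a small molecule can switch on. CAR and PXR respond to drugs and foreign chemicals, pair with RXR-alpha on DNA and raise the genes of drug metabolism. CAR differs from most of the family in that it is held in the cytoplasm and can be moved to the nucleus by a chemical, so that its activity need not follow the amount of its transcript. FXR responds to bile acids and raises SHP, which lacks a DNA-binding domain and restrains other receptors, among them the product of Nr5a2, on genes of bile acid synthesis.

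The question was whether the receptor transcripts themselves changed with phenolphthalein. In limma's moderated test over 39411 probes 0 of the 20 passed a Benjamini-Hochberg adjusted p of 0.05, and 1 of 20, of Rxra, had an unadjusted p under 0.05. Over all probes 0.0482% passed the adjusted threshold (0.0457% higher and 0.00254% lower with phenolphthalein), and at an unadjusted p under 0.05 the share was 13.2% (6.84% for higher and 6.37% for lower probes). Of the 20 probes 8 had a higher and 12 a lower mean with phenolphthalein, with a median log2 fold change of -0.05, against 0.02 over all probes. When arrays were scaled by their median, the sign of 4 probes with changes near 0 turned, 1 each of Nr1h4 and Nr1h3 and 2 of Hnf4a. On the gene level, with the brightest probe standing for a gene, the median size of the change, whatever its sign, was 0.13 log2 units for the 9 receptors and 0.14 for all 11434 genes tested. For scale, Cyp2b1, the phenobarbital-inducible cytochrome P450 that CAR raises, had a log2 fold change of 3.61 ± 0.20 (SE) with a limma adjusted p of 0.0108.

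Values below are log2 signals relative to the 75th percentile of the same array, in the order of replicates 1 to 3. Levels of different probes are not set against each other, since a probe's brightness depends on its own sequence.

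**Figure D1:**
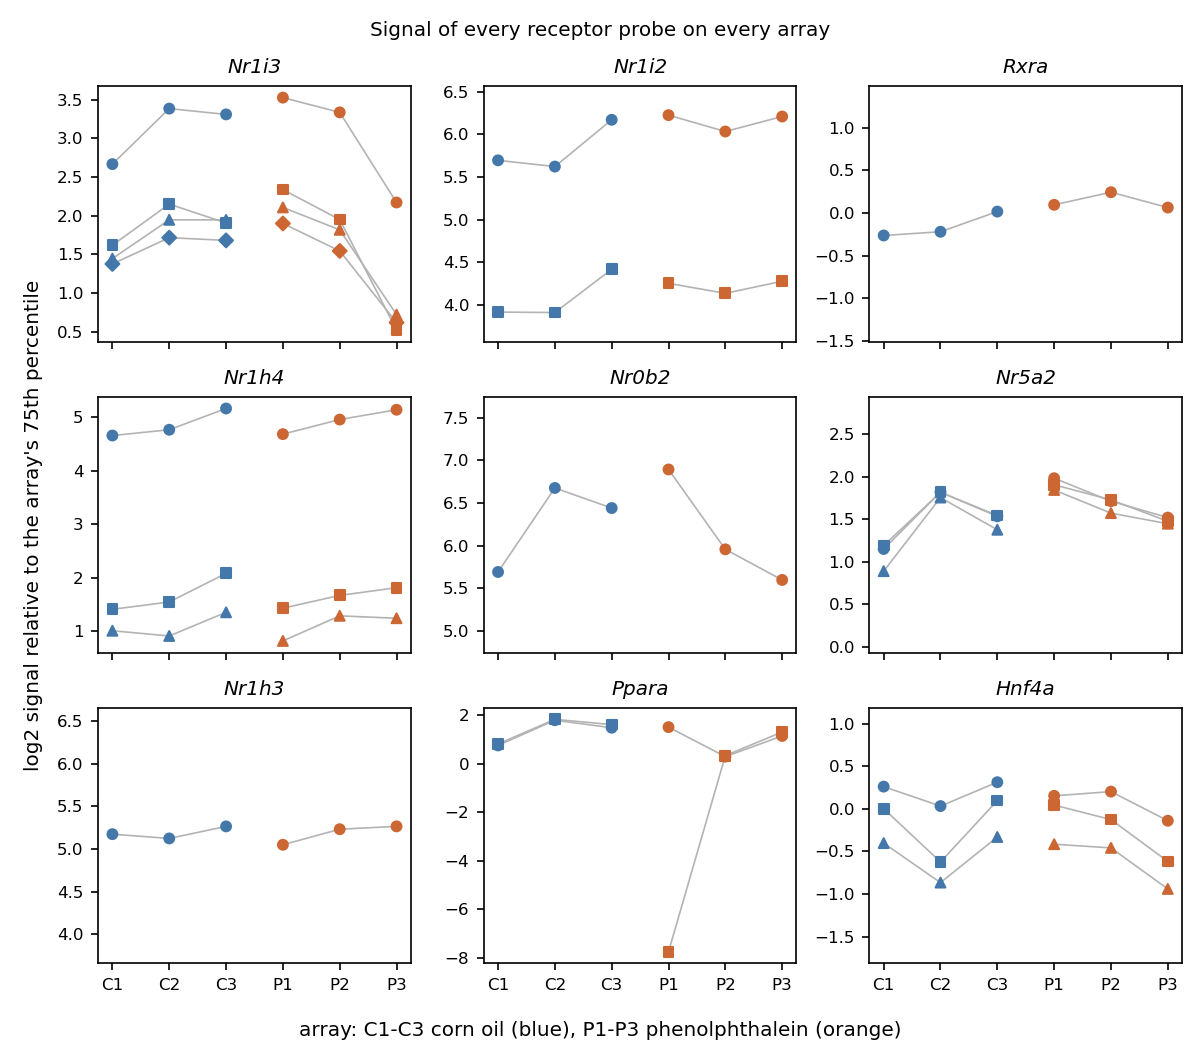
Log2 signal of each of the 20 receptor probes (vertical axis, relative to the array's 75th percentile) on each array (horizontal axis; C1 to C3 corn oil, P1 to P3 phenolphthalein). Symbols mark different probes of a gene, grey lines join the spots of 1 probe within a group, and vertical ranges differ between panels; Rxra is the gene whose groups do not overlap, all 4 Nr1i3 probes are lowest on P3, and 1 Ppara spot on P1 reads -7.75.

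The drug sensors come first. Nr1i3 codes for CAR, and its brightest probe read 2.67, 3.38 and 3.31 in corn oil and 3.53, 3.34 and 2.17 with phenolphthalein. The groups overlapped: phenolphthalein replicate 1 gave the highest value of all 6 animals and phenolphthalein replicate 3 the lowest. The other 3 probes gave the same picture, with 0.52, 0.72 and 0.62 on phenolphthalein replicate 3, against 1.38 to 2.34 on the other 5 arrays. For the brightest probe the log2 fold change was -0.11 ± 0.40 (SE), with a 95% interval of -1.09 to 0.87 and a limma adjusted p of 0.926. The interval spans folds of 0.471 to 1.83, and folds within it were not distinguished from no change at this spread. The other 3 probes ranged from -0.29 to -0.23, with limma adjusted p from 0.787 to 0.82.

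The sign for Nr1i3 turned when single animals were left out. Without phenolphthalein replicate 3 the 4 probes had log2 fold changes of 0.31, 0.25, 0.18 and 0.13, and without corn oil replicate 2 the brightest probe had one of 0.02. Taken over the 4 probes, phenolphthalein replicate 3 lay 0.98 log2 units below the mean of the 6 arrays, corn oil replicate 1 lay 0.21 below, and the other 4 lay 0.17 to 0.48 above. The highest and lowest animals differed 2.75-fold. All 4 probes had the same highest and the same lowest array. Their spread on the same array was 0.105 log2 units (SD after removing each probe's mean), against 0.579 between animals of 1 group.

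Nr1i2 codes for PXR. Its brightest probe read 5.70, 5.62 and 6.17 in corn oil and 6.23, 6.03 and 6.21 with phenolphthalein. Corn oil replicates 1 and 2 were lower than every treated animal, while corn oil replicate 3 lay among the treated animals. This gave a log2 fold change of 0.33 ± 0.17 (SE), with a 95% interval of -0.08 to 0.73 and a limma adjusted p of 0.452. The second probe read 3.92, 3.91 and 4.42 in corn oil and 4.25, 4.13 and 4.28 with phenolphthalein. It placed corn oil replicate 3 highest of all, and its log2 fold change of 0.14 ± 0.16 (SE) had a limma adjusted p of 0.731. Without corn oil replicate 3 the log2 fold changes were 0.50 and 0.31, and without corn oil replicate 2 they were 0.22 and 0.055.

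Rxra codes for RXR-alpha, the partner with which CAR, PXR, FXR, LXR-alpha and PPAR-alpha bind DNA. Its 1 probe read -0.26, -0.22 and 0.02 in corn oil and 0.10, 0.24 and 0.06 with phenolphthalein. It was the 1 receptor probe whose groups did not overlap, and the gap between corn oil replicate 3 and phenolphthalein replicate 3 was narrow. Treated arrays lay above the corn oil arrays without overlap for 11.8% of all probes tested, below them for 9.23%, and in either direction for 21.1%. Rxra had a log2 fold change of 0.29 ± 0.11 (SE), a 1.22-fold difference with a 95% interval of 1.01 to 1.47. Its limma unadjusted p was 0.0388 and its limma adjusted p 0.355, so it did not pass. It stayed positive when each array was left out in turn, at 0.24 to 0.38, with limma adjusted p from 0.367 to 0.579. The spot on phenolphthalein replicate 1 lay in the column of dim spots described under Ppara, and with that column left out, a step chosen after seeing the data, the log2 fold change was 0.31 and the limma adjusted p 0.406. In that setting 0 of the 20 probes had an unadjusted p under 0.05.

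**Figure D2:**
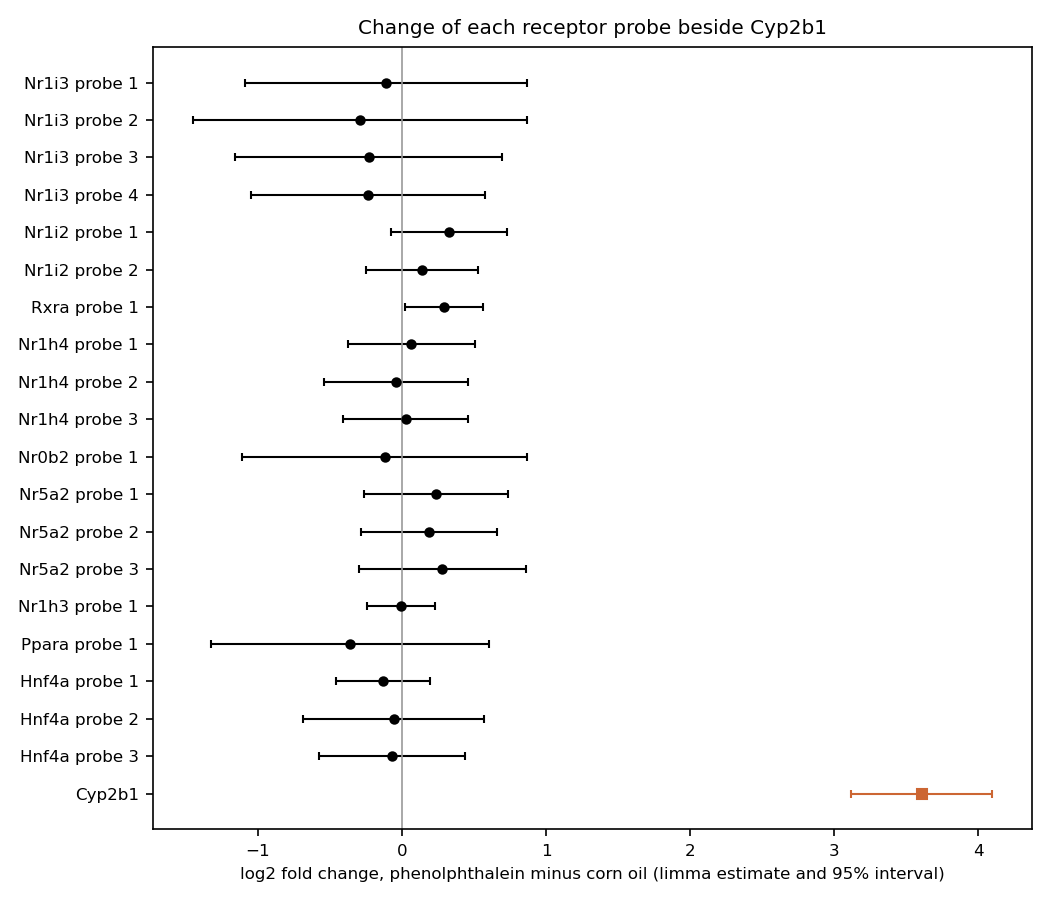
Log2 fold change of 19 receptor probes, phenolphthalein minus corn oil (horizontal axis), with limma's 95% interval as bars and 3 animals per group, beside Cyp2b1 (square). The second Ppara probe, with its failed spot, is left out; the interval of Rxra, from 0.02 to 0.56, does not reach 0 before adjustment, those of the other 18 do, and Cyp2b1 lies at 3.61.

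Among the bile acid receptors, Nr1h4 codes for FXR. Its brightest probe read 4.65, 4.76 and 5.16 in corn oil and 4.68, 4.95 and 5.13 with phenolphthalein. The groups covered almost the same range, with corn oil replicate 3 highest. The difference in log2 units was 0.06 ± 0.18 (SE), with a 95% interval of -0.38 to 0.51 and a limma adjusted p of 0.899. The other probes had log2 fold changes of -0.04 and 0.03. All 3 probes put corn oil replicate 3 highest, while phenolphthalein replicate 1 was lowest for 1 of the 3.

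Nr0b2 codes for SHP, whose transcript FXR raises. It read 5.69, 6.68 and 6.44 in corn oil and 6.89, 5.96 and 5.60 with phenolphthalein. The animals of each group were far apart and the groups overlapped, with a treated animal highest and another lowest. Phenolphthalein minus corn oil gave -0.12 ± 0.40 log2 units (SE), with a 95% interval of -1.11 to 0.87 and a limma adjusted p of 0.919. The value was 0.16 without phenolphthalein replicate 3 and 0.08 without corn oil replicate 2. As for Nr1i3, phenolphthalein replicate 1 was the highest array, phenolphthalein replicate 3 the lowest and corn oil replicate 1 the lowest of the controls, with 2.46-fold between the extremes.

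Nr5a2 codes for a receptor also called liver receptor homolog, which drives bile acid synthesis genes and is restrained by SHP. Its brightest probe read 1.15, 1.82 and 1.53 in corn oil and 1.98, 1.71 and 1.52 with phenolphthalein. Corn oil replicate 1 was the lowest and phenolphthalein replicate 1 the highest array for 3 of 3 probes. The groups overlapped, and the log2 fold changes were 0.24 ± 0.20 (SE), 0.19 ± 0.19 and 0.28 ± 0.24, with limma adjusted p of 0.649, 0.706 and 0.639. They were 0.061, 0.023 and 0.056 without corn oil replicate 1 and 0.39, 0.34 and 0.49 without corn oil replicate 2. The 3 probes differed by 0.0487 log2 units on the same array, against 0.297 between animals of 1 group.

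With the probes of a gene averaged, Nr1i3, Nr0b2 and Nr5a2 were the 3 receptors highest on phenolphthalein replicate 1. The sequences before their start sites are given for that reason. Phenolphthalein replicate 1 was the array least like the others, with correlations of 0.9794 to 0.9829, against 0.9875 to 0.9903 between the other arrays. The share of all genes highest on it was not counted. The brightest Nr1i2 probe was also highest on phenolphthalein replicate 1, at 6.23, but the second Nr1i2 probe was highest on corn oil replicate 3. A RefSeq promoter (build GRCr8, 250 bases before to 50 after the gene's start) was found for 8 of the 9 genes, with 2 for Hnf4a. Capitals mark matches on either strand to AGGTCA or GGGTCA, forms of the core letters that receptors of this family bind, to CACGTG, the E-box, and to TATAAA.
Nr1i3, chr13:86165170-86165469, + strand: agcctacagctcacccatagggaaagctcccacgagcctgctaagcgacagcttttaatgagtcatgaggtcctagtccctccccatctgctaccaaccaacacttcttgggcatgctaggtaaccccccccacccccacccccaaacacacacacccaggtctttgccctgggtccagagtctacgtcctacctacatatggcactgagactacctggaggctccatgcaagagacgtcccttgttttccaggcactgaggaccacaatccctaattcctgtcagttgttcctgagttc
Nr0b2, chr5:151062910-151063209, + strand: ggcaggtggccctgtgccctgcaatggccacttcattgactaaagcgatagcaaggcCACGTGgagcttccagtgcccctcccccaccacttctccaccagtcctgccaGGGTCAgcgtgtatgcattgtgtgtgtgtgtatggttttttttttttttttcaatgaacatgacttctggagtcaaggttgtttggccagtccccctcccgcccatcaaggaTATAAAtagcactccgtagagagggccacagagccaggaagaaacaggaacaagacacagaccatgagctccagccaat
Nr5a2, chr13:50984889-50985188, - strand: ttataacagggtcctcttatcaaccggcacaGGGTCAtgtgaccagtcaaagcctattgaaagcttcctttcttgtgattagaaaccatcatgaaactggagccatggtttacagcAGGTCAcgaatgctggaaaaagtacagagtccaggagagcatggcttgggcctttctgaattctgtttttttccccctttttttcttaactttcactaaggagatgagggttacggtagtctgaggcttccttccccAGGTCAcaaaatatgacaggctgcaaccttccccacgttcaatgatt
The Nr5a2 window held AGGTCA at positions 117 and 254, counted from the 5′ end, and GGGTCA at position 32. The Nr0b2 window held GGGTCA at position 110, CACGTG at position 58 and TATAAA at position 222. The Nr1i3 window held no match, nor did the promoters of the other 5 receptors. Of 33469 promoters of that length, 16.2% held AGGTCA, 13.8% GGGTCA, 6.42% CACGTG and 14.2% TATAAA. Searches for CAAGGTCA (1.52% of all promoters), a direct repeat of AGGTCA with any 1 base between the copies (0.0538%) and TTATGTAA, the D-box (0.893%), gave no match in the receptors. AGGTCA is contained in CAAGGTCA and in the repeat. A match describes letters only.

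The lipid sensors were Nr1h3 and Ppara. Nr1h3 codes for LXR-alpha, which responds to oxidised cholesterol, and it was the steadiest of the 9 genes. It read 5.17, 5.12 and 5.26 in corn oil and 5.05, 5.23 and 5.26 with phenolphthalein. The lowest and highest animals differed 1.16-fold. Its log2 fold change was -0.01 ± 0.10 (SE) with a limma adjusted p of 0.986, and the 95% interval of the fold, 0.847 to 1.17, was the narrowest among the 20 probes.

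Ppara codes for PPAR-alpha, the fatty acid sensor that raises genes of fatty acid oxidation. Its brightest probe read 0.77, 1.80 and 1.50 in corn oil and 1.52, 0.30 and 1.16 with phenolphthalein. The groups overlapped, with corn oil replicate 2 highest and phenolphthalein replicate 2 lowest. This is a log2 fold change of -0.36 ± 0.39 (SE), with a 95% interval of -1.33 to 0.60 and a limma adjusted p of 0.72. Without phenolphthalein replicate 2 it was -0.02, and without corn oil replicate 1 it was -0.66.

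The second Ppara probe followed the first on 5 arrays, with 0.82, 1.84 and 1.62 in corn oil and 0.34 and 1.32 on phenolphthalein replicates 2 and 3. On phenolphthalein replicate 1 it read -7.75, a scanner signal of 2.69 where the lowest spot of that array was 2.54, and the spot carried no outlier mark. In that column of the array 42 of 94 bright spots lay over 2 log2 units below the other arrays, against 0.409% of bright spots on the whole array and 0 in the same column of the other 5 arrays. This probe had a log2 fold change of -3.46 ± 2.37 (SE) with all spots and -0.60 with that column left out, with limma adjusted p of 0.565 and 0.586. Taking the mean of the probes of a gene would give Ppara a log2 fold change of -1.91 from this 1 spot.

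Hnf4a codes for a receptor that keeps up the identity of hepatocytes. Its brightest probe read 0.26, 0.03 and 0.31 in corn oil and 0.15, 0.20 and -0.14 with phenolphthalein. The groups overlapped, and phenolphthalein replicate 3 and corn oil replicate 2 were the lowest arrays. For the 3 probes the log2 fold changes were -0.13 ± 0.13 (SE), -0.06 ± 0.26 and -0.07 ± 0.21, with limma adjusted p of 0.701, 0.937 and 0.903. The brightest probe ran from -0.21 without corn oil replicate 2 to -0.024 without phenolphthalein replicate 3.

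**Figure D3:**
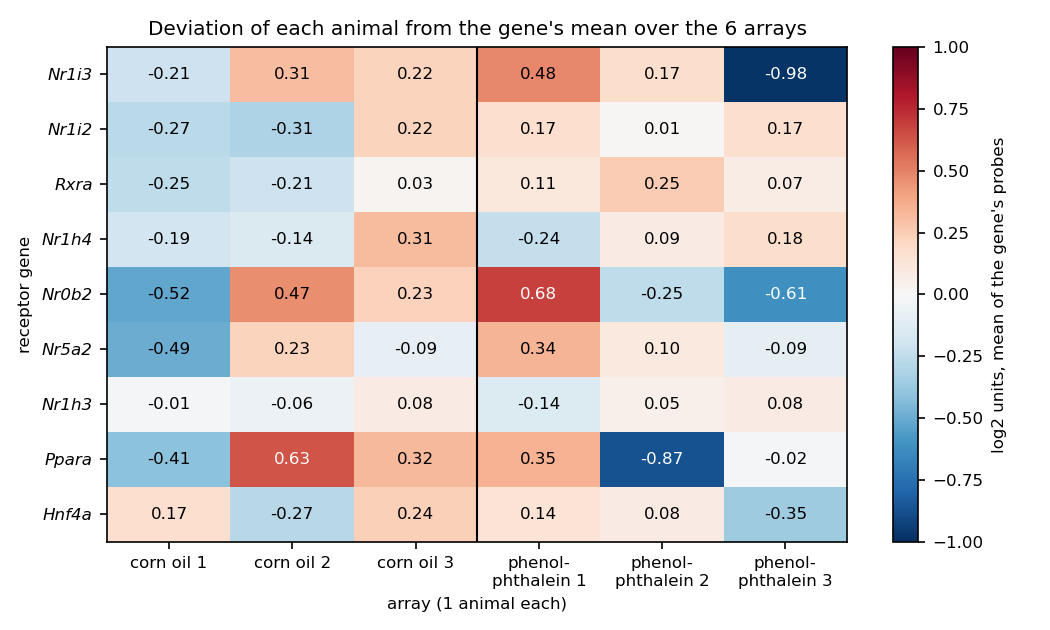
Deviation of each animal (columns) from the gene's mean over the 6 arrays, in log2 units, averaged over the probes of each receptor gene (rows; the second Ppara probe is left out). Nr1i3 and Nr0b2 are both highest on phenolphthalein replicate 1 and lowest on phenolphthalein replicate 3, while Nr1h3 stays within 0.14 of its mean.

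Probes of a gene that share an array share its RNA and hybridisation, so their spread holds neither animal nor array differences. For the 5 genes with over 1 usable probe, the SD between animals of a group was 3.00 to 6.09 times the SD between probes on the same array. The median residual SD was 0.289 log2 units over the 20 receptor probes and 0.168 over all probes tested. The 4 Nr1i3 probes, the Nr0b2 probe and the first Ppara probe had residual SDs above those of 90.8% to 95.8% of all probes, while Nr1h3 stood at 22%. Patterns over the arrays differed between receptors: with the probes of a gene averaged, 3 genes were highest on phenolphthalein replicate 1 and 3 others on corn oil replicate 3.

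As a measure of likeness, tested genes were ranked by Pearson correlation with the brightest probe over the same 6 arrays, as a description over animals that share 2 slides and with no test. Among 11425 genes, the closest to Nr1i3 were Veph1 (r = 0.989), Ston1 (r = 0.988) and Slc25a32, a mitochondrial folate carrier (r = 0.986). Slc25a32 read 1.39, 2.56 and 2.14 in corn oil and 2.63, 2.35 and 0.92 with phenolphthalein. That it was lowest on phenolphthalein replicate 3 largely follows from its choice by likeness to Nr1i3 and is no separate result. The closest to Nr1i2 were Snrnp48 (r = 0.997), Cpg1 (r = 0.989) and Bdh2 (r = 0.981).

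The lists of partners and target genes were set beside the receptors on the gene level, where the median log2 fold change of all genes was 0.01. Of all genes, 0.0612% passed the adjusted threshold (0.0525% higher, 0.00875% lower), and at an unadjusted p under 0.05 the share was 15.3% (7.16% for higher and 8.11% for lower genes). The groups did not overlap for 12.2% of genes with phenolphthalein above and 11% with it below. CAR and PXR targets were the list with called members: 3 of 25 rose, 0 fell and 22 did not pass, with a median of 0.45. At a limma unadjusted p under 0.05, 10 of the 25 were higher and 0 lower. The groups did not overlap for 11 with phenolphthalein above and for 0 with it below. Cyp2b1 rose 12.2-fold, Cyp2b2, its close paralog, 11.2-fold and Ugt2b1, a glucuronosyltransferase, 6.46-fold. In log2 units Cyp2b2 and Ugt2b1 changed by 3.49 ± 0.21 (SE) and 2.69 ± 0.19, with limma adjusted p of 0.0108 and 0.0176. A higher mean was seen for 23 of the 25, against 51.8% of all genes. For Cyp3a23-3a1, a P450 that PXR raises, the log2 fold change of 0.35 ± 0.15 (SE) did not pass, with a limma adjusted p of 0.344. Cyp3a2 had one of 0.54 ± 0.08 (SE), with groups that did not overlap and a limma adjusted p of 0.116. Cyp3a9, Cyp3a18 and Cyp3a62 had log2 fold changes of 0.70 ± 0.44 (SE), 0.17 ± 0.13 and 0.19 ± 0.26. Their limma adjusted p were 0.49, 0.544 and 0.764. Without 1 array, 0 to 2 members of the list passed, while its median ran from 0.35 to 0.54.

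In the treated animals the target genes can be set beside Nr1i3. Cyp2b1 read 8.36, 8.22 and 7.62 and Cyp2b2 9.55, 9.56 and 9.19 on phenolphthalein replicates 1 to 3, against 4.41, 4.55 and 4.42 and 6.33, 5.58 and 5.92 in corn oil. The animal with the lowest Nr1i3 signal, phenolphthalein replicate 3, thus also had the lowest Cyp2b1 and Cyp2b2 signals of the treated group, and both lay over 3 log2 units above the corn oil means. Other targets did not share this order. Ugt2b1 read 7.62, 7.38 and 7.37 on the treated arrays, with replicates 2 and 3 nearly equal. Cyp3a2 read 9.58, 9.42 and 9.44 and was lowest on replicate 2. The median deviation of the 25 targets was 0.41, 0.22 and 0.07 on the treated arrays and -0.08, -0.14 and -0.29 on the corn oil arrays. Within the treated group 14 of the 25 targets were lowest and 5 were highest on phenolphthalein replicate 3. On replicate 2, where Nr1i3 was not low, 10 were lowest, and on replicate 1 the number was 1. With 3 treated animals this order was not tested, and the same counts over all genes were not made. In corn oil, replicate 1 had the lowest Nr1i3 signal of the group but the highest Cyp2b2 signal and the highest target median. Its Cyp2b1 signal, 4.41, was the lowest of the group.

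Genes that hold CAR in the cytoplasm or act on its signalling, such as the chaperones of its complex, gave 0 calls among 14 tested, with 1 higher and 1 lower at a limma unadjusted p under 0.05. Fkbp5, a co-chaperone of steroid receptors, read 1.21, 2.25 and 2.47 in corn oil and 3.22, 3.87 and 3.37 with phenolphthalein. Its groups did not overlap, and its log2 fold change was 1.51 ± 0.36 (SE) with a limma adjusted p of 0.2. In log2 fold change, Src, a tyrosine kinase, stood at -0.77 ± 0.20 (SE) and Egfr, the growth factor receptor whose signal keeps CAR inactive, at 0.41 ± 0.20, with limma adjusted p of 0.216 and 0.395. Coregulators gave 0 calls among 12 tested and 0 with a limma unadjusted p under 0.05, with log2 fold changes of -0.46 for Nrip1, a corepressor, -0.11 for Carm1 and 0.12 for Prmt1, both arginine methyltransferases.

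Other nuclear receptors gave 0 calls among 25 tested, with 1 lower at a limma unadjusted p under 0.05 and a median of -0.09. That 1 was Rxrg, another RXR form, which read 3.52, 3.60 and 3.58 in corn oil and 3.11, 2.89 and 3.31 with phenolphthalein. Its log2 fold change was -0.46 ± 0.12 (SE), with a limma adjusted p of 0.216, and -1.26 when its probes were averaged. Ppard had a log2 fold change of -0.25 and Nr4a2 one of -0.39, with limma adjusted p of 0.333 and 0.353. Other liver transcription factors gave 0 calls among 15, with 1 higher at a limma unadjusted p under 0.05. That 1 was Arnt, the partner of the dioxin receptor, at a log2 fold change of 0.52 ± 0.15 (SE), with a limma adjusted p of 0.239. Srebf2, which controls cholesterol synthesis, and Ahr, the dioxin receptor itself, had log2 fold changes of 0.21 ± 0.11 (SE) and 0.79 ± 0.43, with limma adjusted p of 0.406 and 0.435. Ahr ran from 0.49 without phenolphthalein replicate 1 to 1.23 without phenolphthalein replicate 3. Foxa2, another of the 15, read 2.78, 1.74 and 2.69 in corn oil and 2.61, 3.38 and -7.35 with phenolphthalein. Its log2 fold change of -2.86 ± 2.85 (SE) rests on that 1 low spot, which carried no outlier mark. The limma adjusted p of Foxa2 was 0.661.

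**Figure D4:**
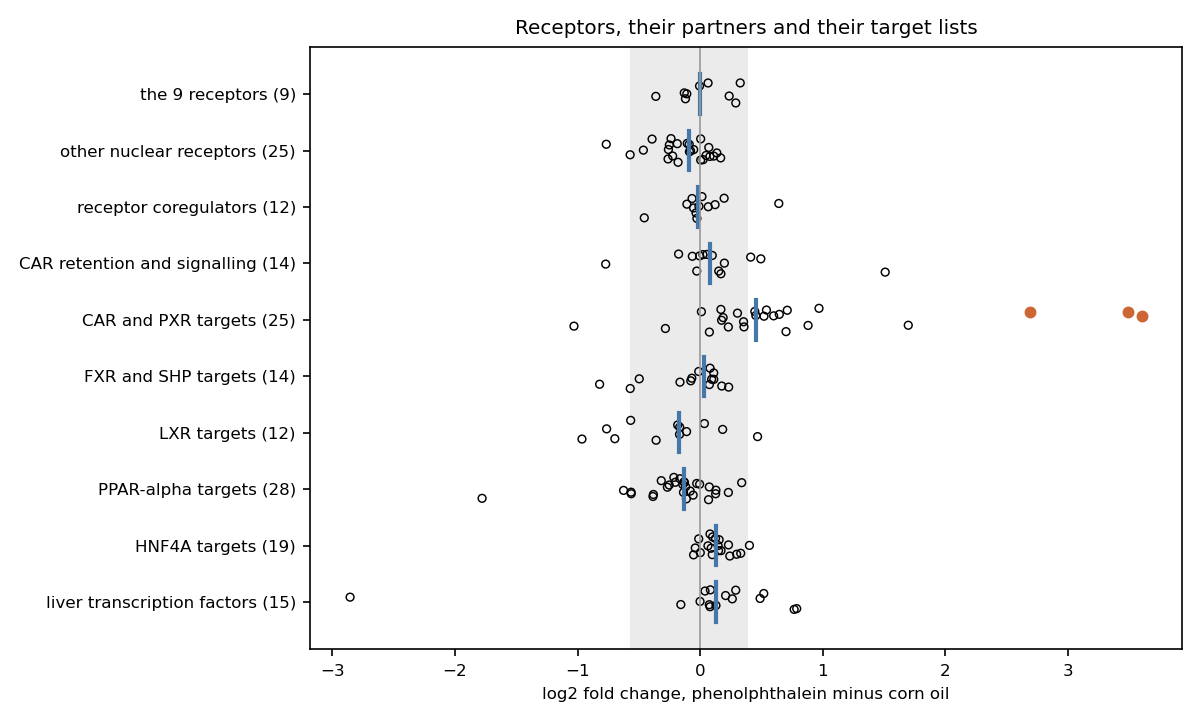
Log2 fold change, phenolphthalein minus corn oil (horizontal axis), of the 9 receptor genes and of the tested members of each list (rows, number in brackets), with 3 animals per group. Filled points passed limma's adjusted threshold over all genes, open points did not, and blue bars are medians. The grey band runs from the 5th to the 95th percentile of all genes, -0.57 to 0.38. The 3 filled points are Cyp2b1, Cyp2b2 and Ugt2b1. The point at -2.86 is Foxa2, whose value rests on 1 low spot on phenolphthalein replicate 3.

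FXR and SHP targets gave 0 calls among 14 tested, with 2 lower at a limma unadjusted p under 0.05 and a median of 0.03. The 2 were enzymes of bile acid synthesis. Cyp7b1, an oxysterol hydroxylase, read 0.19, 0.15 and 0.39 in corn oil and -0.28, -0.31 and -0.17 with phenolphthalein, a log2 fold change of -0.50 ± 0.10 (SE) with a limma adjusted p of 0.164. Cyp8b1, the sterol 12-alpha-hydroxylase, had one of -0.57 ± 0.18 (SE), with a limma adjusted p of 0.25. The groups did not overlap for either gene, as for 23.2% of all genes in either direction. Cyp7a1, the rate-limiting enzyme of that pathway, varied from -1.59 to 0.69 among controls and from -2.85 to -0.18 among treated animals, and Abcb11, the bile salt export pump, had a log2 fold change of 0.23 ± 0.14 (SE). Their limma adjusted p were 0.672 and 0.475. Slc10a1, the bile acid uptake carrier, had a log2 fold change of 0.18 with a limma adjusted p of 0.379.

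LXR targets gave 0 calls among 12 tested, with 3 lower at a limma unadjusted p under 0.05 and a median of -0.18. Abcg1, a cholesterol exporter, read 2.07, 1.91 and 1.83 in corn oil and 1.19, 1.02 and 1.31 with phenolphthalein. Its log2 fold change was -0.76 ± 0.11 (SE) with a limma adjusted p of 0.116. Scd2, a desaturase, had one of -0.70 ± 0.23 (SE) and Pltp, the phospholipid transfer protein, one of -0.57 ± 0.22, with limma adjusted p of 0.271 and 0.318. Abcg5, a sterol exporter of hepatocytes, had one of -0.17 ± 0.18 (SE), with a limma adjusted p of 0.688. Markers of Kupffer cells, the macrophages of the liver, were also lower on average: 11 of 11 tested had a lower mean with phenolphthalein, with a median of -0.63. Of these, 0 passed in limma and 10 had an unadjusted p under 0.05. Their summed signal was 7.58 to 8.09 log2 units in corn oil and 7.14 to 7.54 with phenolphthalein, Marco read 1.59, 2.12 and 1.21 against 0.08, -0.08 and 0.57, and Cd163 had a log2 fold change of -0.63. The part of these cells in the values of Abcg1, Pltp and the other LXR targets was not tested. In whole liver, fewer cells of a type and less RNA per cell cannot be told apart.

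PPAR-alpha targets gave 0 calls among 28 tested, with 4 lower at a limma unadjusted p under 0.05 and a median of -0.13. Ech1 and Eci1, enzymes that prepare unsaturated fatty acids for oxidation, had log2 fold changes of -0.39 ± 0.10 (SE) and -0.38 ± 0.14, and Cyp4a1, a fatty acid hydroxylase, one of -0.63 ± 0.21. Their limma adjusted p were 0.208, 0.304 and 0.276. HNF4A targets gave 0 calls among 19 tested, with 1 higher at a limma unadjusted p under 0.05 and a median of 0.13. That 1 was Cyp2c11, the male-predominant P450, at a log2 fold change of 0.40 ± 0.09 (SE), with a limma adjusted p of 0.172, while Gys2, liver glycogen synthase, had 0.30 and Apob 0.06.

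Markers of hepatocytes, where these receptors are chiefly made, were present in both groups. All 10 tested were well above background on every array, their summed signal was 12.18 to 12.28 log2 units in corn oil and 12.24 to 12.30 with phenolphthalein, and their median log2 fold change was 0.06 with 0 calls and 0 at a limma unadjusted p under 0.05. Alb, the gene of albumin, had a log2 fold change of 0.01, Fgb 0.10 and Tat 0.33. Of the other cell types, lymphocyte and leukocyte markers had a median of -0.44 (6 of 6 with a lower mean), endothelial markers -0.17 (7 of 7) and stellate cell markers -0.19 (7 of 8), each with 0 calls in limma. At an unadjusted p under 0.05 they had 3, 1 and 1 lower members, and stellate cells also 1 higher. Ptprc and Lck had log2 fold changes of -0.59 and -0.50, Cdh5 and Oit3 -0.29 and -0.34, and Rgs5 and Col1a1 0.65 and -0.48.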

How the data were processed

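Per the labels' protocols, Cy3-labelled liver RNA of 6 rats was put on Agilent arrays. The deposited scanner files give spot intensity from Agilent Feature Extraction 10.7, per the submitters' processing notes (10.7.1.1 per the file headers). Its processed signal, per the file headers, is the background-subtracted intensity, without normalization across arrays. Values in the authors' deposited table equalled that intensity over a single factor for each array, constant within 0.00501% for values over 1 and close to the 75th percentile. It is linear and uncentred, with column medians of 0.0984, 0.101 and 0.102 (corn oil) and 0.0955, 0.0941 and 0.096 (phenolphthalein).

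The log2 processed signal minus the array's 75th percentile was used. That percentile was 551 to 636, 62.1% to 65.1% of probes were well above background, 0 spots were saturated and 4 to 14 carried an outlier mark, which were set missing (0 among receptor probes). Probes well above background on at least 3 arrays were kept. Of all probes, 27460 matched 1 gene by unversioned accession in a RefSeq table (GRCr8), 0 several and 34197 none, and the latter stayed in the probe test. The brightest kept probe stood for a gene. Tests used limma 3.58.1 (R 4.3.3) with eBayes and Benjamini-Hochberg adjustment at 0.05, over all probes or all genes, and were tested on simulated data. Groups came from the treatment labels, 1 array per animal, whose number limits how precise the values are.

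The receptors, the 9 pathway lists and the 6 marker lists were chosen with earlier results of these data known. Named were all receptor probes, the 3 members of each pathway list and the 2 of each marker list with the smallest p, the 3 genes most correlated with Nr1i3 and with Nr1i2, and Cyp2b1, Cyp3a23-3a1, Cyp7a1, Abcb11, Cyp4a1, Abcg5, Apob and Alb. Ces2c, Cyp2c6v1, Cyp3a2, Cyp3a9, Cyp3a18, Cyp3a62, Foxa2 and Krt19 were chosen after their values were seen. 1 gene that this rule names is not reported here. Alternatives were normexp (offset 50) on each spot's median signal (its mean signal is not used here), quantile normalization, a median shift, no filter, a filter on all 6 arrays, a trended robust prior, marked spots kept, the deposited values, each array left out, the replicate number as a block, the mean of a gene's probes and named probes alone. Leaving out array columns in which at least 5% of bright spots were over 2 log2 units low was added after the data were seen.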

Additional observations from a re-analysis of the deposited data

How the results depend on the processing

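Under all 17 alternatives run on each, 0 receptor probes and 0 receptor genes passed limma's adjusted threshold, and 0 to 3 probes had an unadjusted p under 0.05. The probe test called 19 probes in the reported setting, 0 with no filter on dim probes, 12 among named probes alone, and 0 to 5 without 1 array. The gene test called 7 genes in the reported setting and 0 to 6 without 1 array. With the replicate number as a block both gave 0. Deviations of same-numbered arrays correlated at -0.0245, 0.0165 and -0.0035, so the numbers are not treated as pairs. Cyp2b1, Cyp2b2 and Ugt2b1 passed together in the settings that kept all arrays and used no block.

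Signs turned as follows. With normexp the log2 fold changes were 0.00246 for Nr1h3, 0.021 for Hnf4a probe 2, 0.10 for Veph1 and 0.00271 for Ston1. With quantile normalization they were -0.024 for Apob and -0.071 for Alb. With a median shift, which moved the median of all genes from 0.01 to 0.089, they were 0.038 for Nr1h4 probe 2, 0.074 for Nr1h3, 0.021 and 0.00747 for Hnf4a probes 2 and 3, 0.045 for Veph1 and 0.012 for Slc25a32. When probes of a gene were averaged they were 0.11 for Ppard (-0.25 as reported) and 0.30 for Slc25a32. Without 1 array the values ran from -0.37 to 0.31, -0.66 to 0.25, -0.51 to 0.18 and -0.51 to 0.13 for Nr1i3 probes 1 to 4. They ran from -0.042 to 0.21, -0.18 to 0.16 and -0.065 to 0.17 for Nr1h4 probes 1 to 3, from -0.49 to 0.16 for Nr0b2, -0.047 to 0.061 for Nr1h3, and -0.28 to 0.13 and -0.24 to 0.096 for Hnf4a probes 2 and 3. For Apob, Alb, Veph1, Ston1 and Slc25a32 they ran from -0.017 to 0.13, -0.014 to 0.032, -0.16 to 0.15, -0.20 to 0.14 and -0.40 to 0.45. Of the list medians given, that of FXR and SHP targets was -0.031 with normexp, -0.023 with quantile normalization and -0.012 with no filter. Without 1 array it ran from -0.064 to 0.025. The hepatocyte median was -0.016 with quantile normalization. The cause of these turns was not tested. Without turning, the endothelial median moved from -0.17 to -0.087 with dim array columns left out. Some values that kept their sign moved by over 1.5 times: Src to -0.32, Arnt to 0.27, Cftr to 0.45 and Lck to -0.14 with normexp, and Cyp7a1 to between -1.41 and -0.076 and Nrip1 to between -0.66 and -0.18 without 1 array.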

Other observations

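Of the 6 marker lists, bile duct and hepatocyte markers had medians above that of all genes in the reported setting, and bile duct markers had the higher of the 2 medians. With quantile normalization the hepatocyte median was -0.016, below the median of 0.0035 for all genes. Of 5 bile duct markers tested, 4 had a higher mean with phenolphthalein, 3 of them at a limma unadjusted p under 0.05, the median log2 fold change was 0.33, and 0 passed after adjustment. Over all genes, 51.8% had a higher mean and 7.16% were higher at a limma unadjusted p under 0.05. The marker with a lower mean was Krt19, at a log2 fold change of -0.09 ± 0.21 (SE), with overlapping groups and a limma adjusted p of 0.871. Cftr, the chloride channel of bile duct cells, read -4.20, -3.85 and -3.96 in corn oil and -2.85, -3.25 and -3.36 with phenolphthalein, a log2 fold change of 0.85 ± 0.17 (SE) with a limma adjusted p of 0.165. With normexp its log2 fold change was 0.45. Spp1, which codes for osteopontin, had one of 0.92 ± 0.21 (SE), with a limma adjusted p of 0.194.

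Among the CAR and PXR targets that did not pass, Ces2c, a carboxylesterase, read 0.26, 0.39 and -0.12 in corn oil and 2.26, 2.14 and 1.22 with phenolphthalein, a log2 fold change of 1.70 ± 0.30 (SE) with a limma adjusted p of 0.147. Cyp2c6v1, another P450, differed by 0.97 ± 0.13 (SE) log2 units, higher with phenolphthalein, with a limma adjusted p of 0.0972.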
